A study of Mus musculus with 8 samples.

Results

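Primitive endoderm is the epithelium that sorts out beside the epiblast in the mouse blastocyst and goes on to form the visceral and parietal layers of the yolk sac. The genes described here are 10 of its regulators and markers, chosen by symbol from a fixed list, out of 24421 gene symbols in the count tables: the transcription factors Gata4, Gata6, Sox17, Sox7, Hnf4a and Foxq1, the growth factor receptor Pdgfra, and the uptake genes Dab2, Cubn and Amn. All 10 were present in both tables. They were measured by sequencing polyA-selected RNA from mouse embryonic stem cells, all kept over 3 to 4 passages with 2i/LIF, inhibitors and a cytokine that preserve the naive, epiblast-like state. Ubc9-depleted cells had received doxycycline for 72 hours and were set against Ubc9 control cells, both of the v6.5 line. H1 TKO cells have no H1.2, H1.3 or H1.4, which are linker histones, and were set against H1 control cells labelled as wild type, both lines being taken from an earlier publication. Each group had 2 libraries, and the labels do not say whether these came from separate cultures, how the doxycycline removes Ubc9, whether the Ubc9 controls received it, or how many clones the H1 lines represent. The p-values therefore measure only the spread between libraries, which may be technical.

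In the embryo, FGF4 made by epiblast precursors acts through FGF receptors and the ERK kinases to favour GATA6 over NANOG, and GATA6 then precedes PDGFRA, SOX17, GATA4 and SOX7 as cells commit to primitive endoderm. Once the layer is an epithelium, cubilin (Cubn) and amnionless (Amn) form a receptor that takes up proteins from outside the embryo. The adaptor DAB2 links such receptors to clathrin, and HNF4A drives the secretory programme of the mature visceral endoderm. Embryonic stem cells under 2i are shielded from FGF-ERK signalling and are known to hold these genes low. Ubc9 is the enzyme that attaches SUMO to its targets, and H1 histones compact chromatin.

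Library totals ranged from 75972231 to 102780141 counts in the Ubc9 series and from 44441713 to 68445181 counts in the H1 series. CPM here are counts divided by the TMM-scaled library size and multiplied by 1e6. In H1 TKO cells, Hist1h1c, Hist1h1d and Hist1h1e had 0 counts in both libraries, against sums of 202, 390 and 276 counts in the H1 controls. Ubc9-depleted library 1 stood apart: it carried a read, at equal depth, on 84.4% of the 6248 genes that had at most 1 count in each Ubc9 control, against 29.2% in Ubc9-depleted library 2 and 9.67% to 11.7% in the controls themselves. The H1 control pair differed by an SD of 0.79 in the log2 ratio per gene, against 0.51 between the H1 TKO libraries. Results that rest on 1 library are given with and without it.

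The 10 genes were low in all groups relative to pluripotency genes, as the levels by library and per length show. Per kilobase of exon, Dab2 was the highest of them in Ubc9-depleted cells, at 1.37 ± 0.0655 RPKM (mean ± SD, n = 2 libraries), against 0.899 ± 0.0828 RPKM in Ubc9 controls. The pluripotency factor Pou5f1 had 335 ± 5.03 RPKM in Ubc9-depleted cells and 328 ± 2.83 RPKM in Ubc9 controls. In H1 TKO cells Dab2 was again the highest, at 1.43 ± 0.121 RPKM, but in H1 controls it had 0.225 ± 0.0761 RPKM, and Gata4 led with 0.989 ± 0.00724 RPKM. Gata4, Gata6, Pdgfra and Hnf4a lay between 0.446 and 0.842 RPKM on average in Ubc9-depleted cells, and Sox7 was the lowest on average of the 10 in that group per kilobase, at 0.0791 ± 0.106 RPKM. The label of the cells as embryonic stem cells thus fits their marker levels, and the comparisons are between low transcript levels of the primitive endoderm genes. In bulk RNA a few cells with much of a transcript and many cells with little cannot be told apart.

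**Figure D1:**
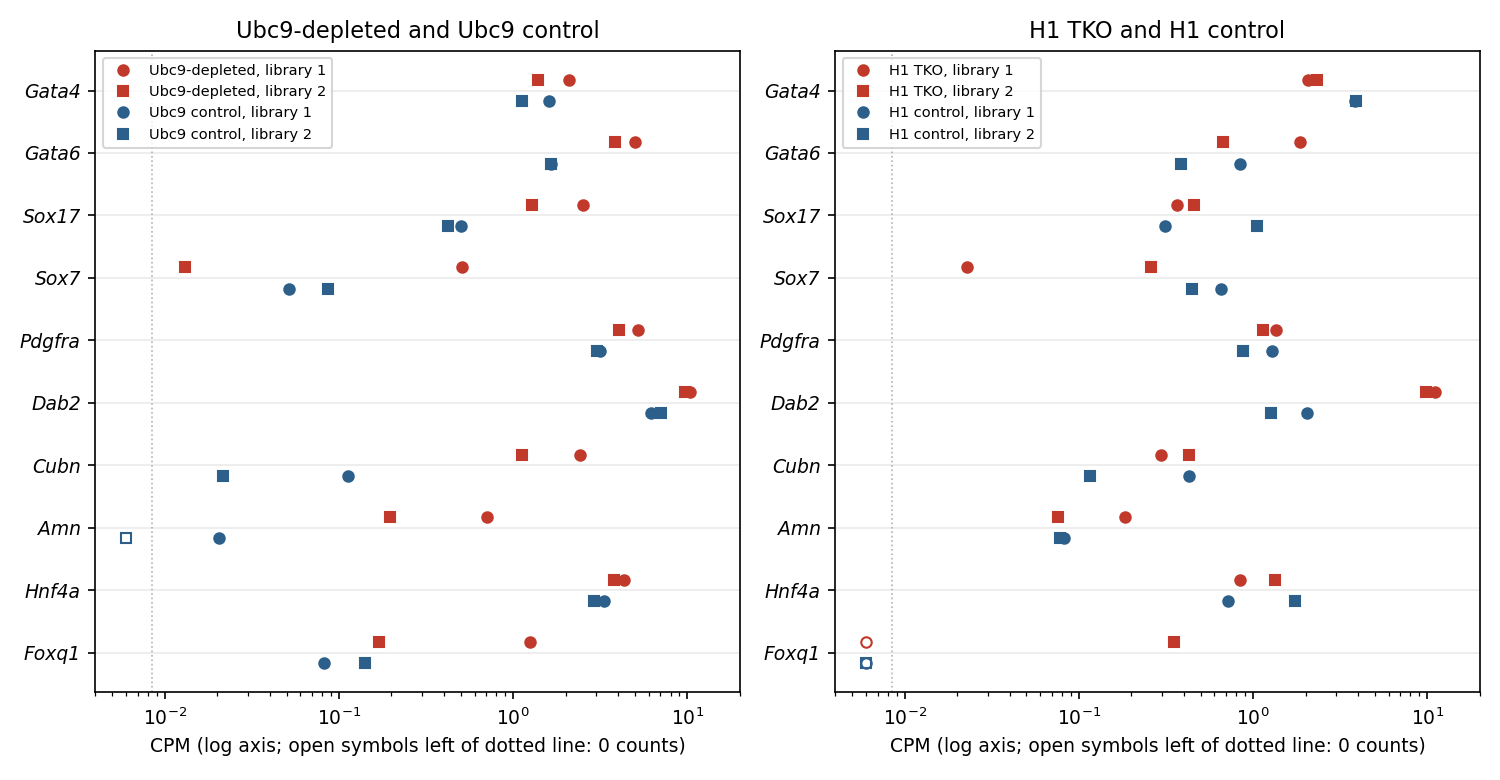
Expression of the 10 primitive endoderm genes in each library, in CPM on a log axis, with Ubc9-depleted and Ubc9 control libraries on the left and H1 TKO and H1 control libraries on the right; circles are library 1, squares library 2, and open symbols left of the dotted line are libraries with 0 counts. Both Ubc9-depleted libraries lie above both Ubc9 controls for 8 genes (all but Gata4 and Sox7), as they do for 36.7% of all genes tested. In the H1 series Dab2 lies higher in H1 TKO libraries, at 11.1 and 9.84 CPM against 2.05 and 1.26 CPM, while Gata4 and Sox7 lie lower in both. Over all genes tested in that series 31.4% lie above both controls and 30.6% below both.

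The comparison of Ubc9-depleted with Ubc9 control cells asks whether loss of the SUMO-conjugating enzyme changes expression of these lineage genes. Gata6, Sox17, Dab2, Cubn, Amn and Foxq1 rose in Ubc9-depleted cells by edgeR's quasi-likelihood test (Benjamini-Hochberg adjustment over all genes tested, threshold 0.05), and none of the 10 was lower. Gata4, Pdgfra and Hnf4a did not pass, and Sox7 was too low to be tested. For scale, 21.1% of the 16499 genes tested were called higher and 15.0% lower, and among tested genes with a control mean under 10 CPM, where the 9 tested members lie, 34.8% were called higher and 2.51% lower. With scaling by library totals the split over all genes was 3983 higher and 1084 lower, against 3479 and 2467 with TMM, and 5 members were called higher. Of the 6 called genes, Cubn, Amn and Foxq1 entered the test through the Ubc9-depleted libraries: they reached the filter level of 0.107 CPM in both of these but in at most 1 control library, so their calls are no support for a direction over the list. The count of 6 became 5 without Ubc9-depleted library 1, which lost Foxq1, and 8 without Ubc9-depleted library 2. Leaving out Ubc9 control library 1 reduced it to 1 (Cubn), and leaving out Ubc9 control library 2 to 2 (Cubn and Dab2). When all 8 libraries of both series shared 1 estimate of the spread, Cubn alone passed.

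Gata6 is the factor that opens the primitive endoderm programme. It had 5.02 and 3.84 CPM in Ubc9-depleted libraries 1 and 2, against 1.65 CPM in both Ubc9 control libraries. Both depleted libraries were above both controls, and the controls barely differed. The log2 fold change was 1.43 ± 0.29 (SE, edgeR adjusted p = 0.000329), and 1.21 without Ubc9-depleted library 1 (adjusted p = 1.65e-06). The call was lost, at log2 fold changes of 1.40 and 1.39, when Ubc9 control library 1 (adjusted p = 0.0589) or 2 (adjusted p = 0.0637) was left out. An antisense gene, 1010001N08Rik, overlaps Gata6 and had 55 and 2 counts in Ubc9-depleted libraries 1 and 2, against 0 and 1 in the controls. Whether counting used strand is not given in the sources used here, so reads of Gata6 and of that gene may not have been separated.

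Sox17, an HMG-box factor that maintains the lineage, had 2.51 and 1.28 CPM in Ubc9-depleted libraries 1 and 2, against 0.504 and 0.424 CPM in Ubc9 control libraries 1 and 2. The groups did not overlap, and Ubc9-depleted library 1 was 1.95 times library 2. Sox17 rose by 2.03 ± 0.59 on the log2 scale (edgeR adjusted p = 0.00842), or by 1.46 without Ubc9-depleted library 1 (adjusted p = 0.00137). The call was lost without Ubc9 control library 1 (adjusted p = 0.218) or 2 (adjusted p = 0.316).

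Its relative Sox7, also an HMG-box factor, was split between the depleted libraries. Sox7 had 51 counts and 1 count in Ubc9-depleted libraries 1 and 2, against 5 and 8 counts in Ubc9 control libraries 1 and 2. Ubc9-depleted library 1 was the highest of the 4 and library 2 the lowest, so the groups overlapped. Sox7 was tested without Ubc9-depleted library 2, where it had a log2 fold change of 2.79 (edgeR adjusted p = 0.00339). That value rests on library 1 alone among the depleted libraries. In the other 5 fits that tested Sox7 (DESeq2, no filter on low counts, all 8 libraries, and without Ubc9 control library 1 or 2) it had log2 fold changes between 1.54 and 2.27 and adjusted p between 0.436 and 0.836.

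Gata4, which acts with Gata6 in visceral endoderm, had 2.09 and 1.39 CPM in Ubc9-depleted libraries 1 and 2, against 1.60 and 1.12 CPM in Ubc9 control libraries 1 and 2. The groups overlapped, and the log2 fold change of 0.36 ± 0.48 did not pass (edgeR adjusted p = 0.583). Hnf4a, the nuclear receptor of mature visceral endoderm, had 4.35 and 3.78 CPM in Ubc9-depleted libraries, against 3.33 and 2.92 CPM in Ubc9 control libraries. Its libraries did not overlap, but the log2 fold change of 0.38 ± 0.26 did not pass (edgeR adjusted p = 0.251). The 95% counting interval of its ratio, which leaves out the spread between libraries, was 1.17 to 1.46. The antisense gene Hnf4aos had 16 and 2 counts in Ubc9-depleted libraries 1 and 2, against 1 count in each control, and its reads may likewise not have been separated.

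Foxq1, a forkhead factor found in primitive endoderm, rested on 1 library. It had 1.25 and 0.170 CPM in Ubc9-depleted libraries 1 and 2, against 0.0823 and 0.141 CPM in Ubc9 control libraries 1 and 2. Ubc9-depleted library 2 sat just above the higher control, while library 1 was 7.33 times library 2. The log2 fold change of 2.66 ± 1.00 (edgeR adjusted p = 0.0381) became 0.60 without Ubc9-depleted library 1 (adjusted p = 0.631). The call was also lost without Ubc9 control library 1 or 2 (adjusted p = 0.586 and 0.501), with DESeq2, with scaling by library totals and with no filter on low counts (adjusted p = 0.0977, 0.0725 and 0.111).

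Pdgfra, the receptor for platelet-derived growth factor that marks the lineage early, had 5.19 and 4.06 CPM in Ubc9-depleted libraries 1 and 2, against 3.14 and 3.04 CPM in Ubc9 control libraries 1 and 2. The groups did not overlap, yet the log2 fold change of 0.58 ± 0.25 missed the threshold (edgeR adjusted p = 0.0638). It was 0.39 without Ubc9-depleted library 1 (adjusted p = 0.128) and 0.67 without Ubc9-depleted library 2 (adjusted p = 0.00409). Pdgfra is also a fibroblast gene, and the sum of 12 fibroblast markers was 47.7 to 56.2 CPM in Ubc9-depleted libraries, against 21.7 to 23.0 CPM in the controls, with no marker at 0 in either group. The part of such markers in the Pdgfra values was not tested.

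The largest ratios belonged to both chains of the cubilin receptor. Cubn, the ligand-binding chain, had 243 and 86 counts in Ubc9-depleted libraries 1 and 2 (2.43 and 1.13 CPM), against 11 and 2 counts in Ubc9 control libraries 1 and 2 (0.113 and 0.0217 CPM). Both depleted libraries were well above both controls. The log2 fold change was 4.68 ± 0.81 (edgeR adjusted p = 4.63e-05), and 4.01 without Ubc9-depleted library 1 (adjusted p = 2.34e-10). Cubn kept its call under every alternative run, with an adjusted p of at most 0.0295, which it had when Ubc9 control library 2 was left out.

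Amn, the membrane chain that carries cubilin to the cell surface, had 71 and 15 counts in Ubc9-depleted libraries 1 and 2 (0.709 and 0.196 CPM), against 2 and 0 counts in Ubc9 control libraries 1 and 2. The depleted libraries were again both above the controls, with library 1 at 3.61 times library 2. With so few control counts the change is best given as the ratio of summed counts, 46.1, with a 95% counting interval of 12.4 to 387. Without Ubc9-depleted library 1 the ratio was 18.6, with an interval of 4.32 to 167. Amn passed the test (edgeR adjusted p = 0.00391), also without Ubc9-depleted library 1 (adjusted p = 0.00609), but not without Ubc9 control library 1 (adjusted p = 0.25) or 2 (adjusted p = 0.531).

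The promoters of the receptor genes are shown because both genes rose. Cubn spans chr2:13276338-13491813 on the minus strand and Amn chr12:111271095-111276426 on the plus strand (GRCm38), so they are not neighbours. Each sequence runs 250 bases before to 50 bases after an annotated start (RefSeq, GRCm38.p6), 5′ to 3′ on the gene's strand. Both strands were searched for a GATA motif (A or T, then GATA, then A or G) and for the SOX core ACAAT, and matches are in capitals.
Cubn, chr2:13491827-13492126, minus strand: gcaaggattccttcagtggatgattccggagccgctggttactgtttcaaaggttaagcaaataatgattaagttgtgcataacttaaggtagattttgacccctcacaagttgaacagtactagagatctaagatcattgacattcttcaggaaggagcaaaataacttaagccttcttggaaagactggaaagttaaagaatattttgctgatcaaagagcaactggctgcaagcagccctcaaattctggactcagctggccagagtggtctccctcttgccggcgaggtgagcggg
Amn, chr12:111270846-111271145, plus strand: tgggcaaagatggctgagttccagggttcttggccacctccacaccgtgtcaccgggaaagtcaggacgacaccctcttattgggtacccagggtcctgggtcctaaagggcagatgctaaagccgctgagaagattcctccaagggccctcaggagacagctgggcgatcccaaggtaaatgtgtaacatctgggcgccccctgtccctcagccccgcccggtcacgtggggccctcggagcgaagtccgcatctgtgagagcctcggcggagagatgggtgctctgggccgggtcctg
Neither window held a GATA or a SOX match, whereas 29.8% of 32851 promoter windows of that length held a GATA match and 31.0% a SOX match. The Cubn window had 5 CpG dinucleotides at a GC content of 44.3%, and the Amn window 15 at 62.3%, against a median of 7 CpG over all windows. Promoter windows were searched for 5 of the 10 genes, namely Pdgfra, Dab2, Cubn, Amn and Hnf4a.

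Dab2, the endocytic adaptor, had 10.4 and 9.72 CPM in Ubc9-depleted libraries 1 and 2, against 6.17 and 7.03 CPM in Ubc9 control libraries 1 and 2. It was the most abundant of the 10 genes by CPM and had the closest depleted libraries, at a ratio of 1.07. The rise was small, 0.61 ± 0.14 on the log2 scale (edgeR adjusted p = 0.0011), and 0.55 without Ubc9-depleted library 1 (adjusted p = 0.00237). The call was lost with DESeq2 (adjusted p = 0.091) and without Ubc9 control library 1 (adjusted p = 0.164), and held without Ubc9 control library 2 (adjusted p = 0.0378).

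**Figure D2:**
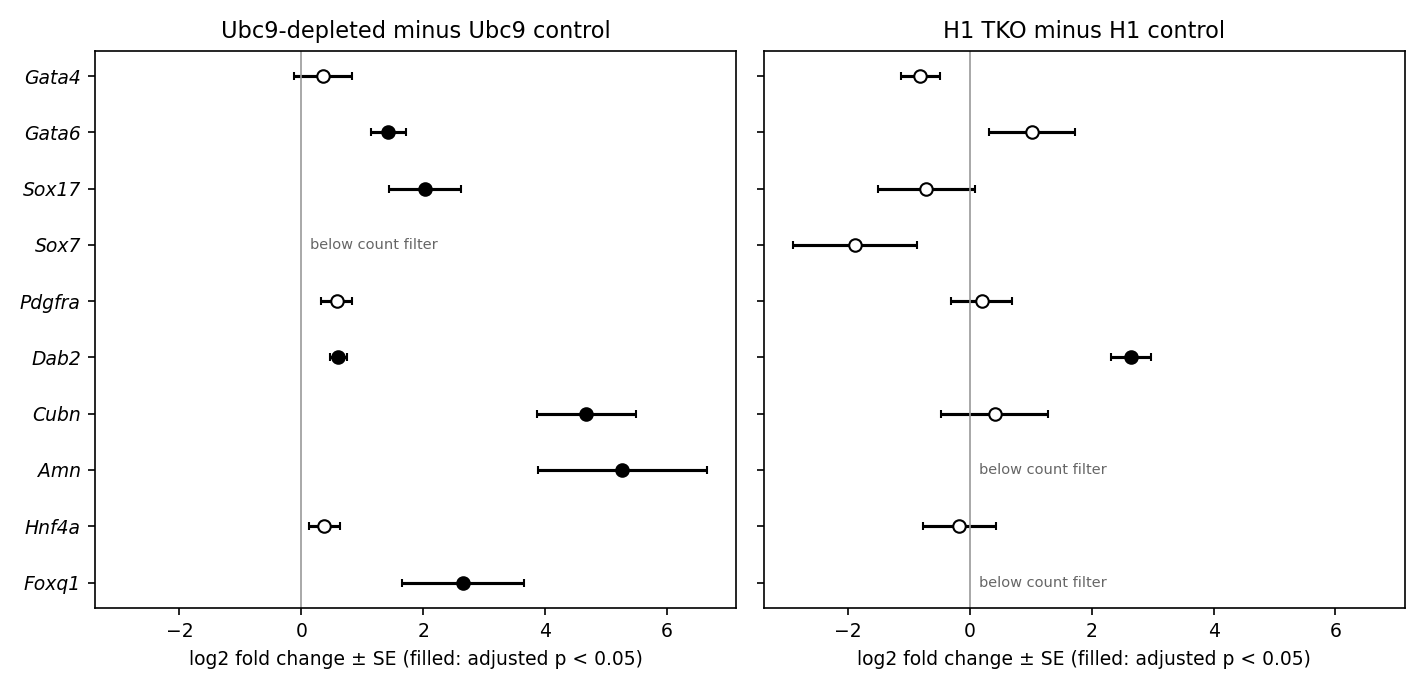
Log2 fold changes with SE from edgeR for Ubc9-depleted minus Ubc9 control cells (left) and H1 TKO minus H1 control cells (right); filled points have an adjusted p under 0.05, and genes below the count filter have no value. After Ubc9 depletion the called genes run upward from 0.61 for Dab2, the fitted Amn value depends on a control sum of 2 counts, and in H1 TKO cells Dab2 alone is called, at 2.65.

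The spread between the Ubc9-depleted libraries went in 1 direction for the whole list. All 10 genes were higher in Ubc9-depleted library 1 than in library 2, by ratios between 1.07 for Dab2 and 38.9 for Sox7. Over all genes tested 52.9% were higher in library 1, but among those with a control mean under 10 CPM the share was 83.2%. In the Ubc9 controls 6 of the 10 genes were higher in library 1. The genes with the largest ratios between the depleted libraries, Sox7, Foxq1 and Amn, are among the 4 with the fewest control counts, the other being Cubn. The values without Ubc9-depleted library 1 leave out the excess of that library only. Ubc9-depleted library 2 also had a read on 29.2% of near-silent genes, against 9.67% to 11.7% in the controls. The part of this excess in the fold changes was not tested. Ubc9-depleted library 2 was above both controls for Gata6, Sox17, Pdgfra, Dab2, Cubn, Amn, Hnf4a and Foxq1. Among all genes tested, both depleted libraries were above both controls in 36.7% and below both in 32.2%.

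**Figure D3:**
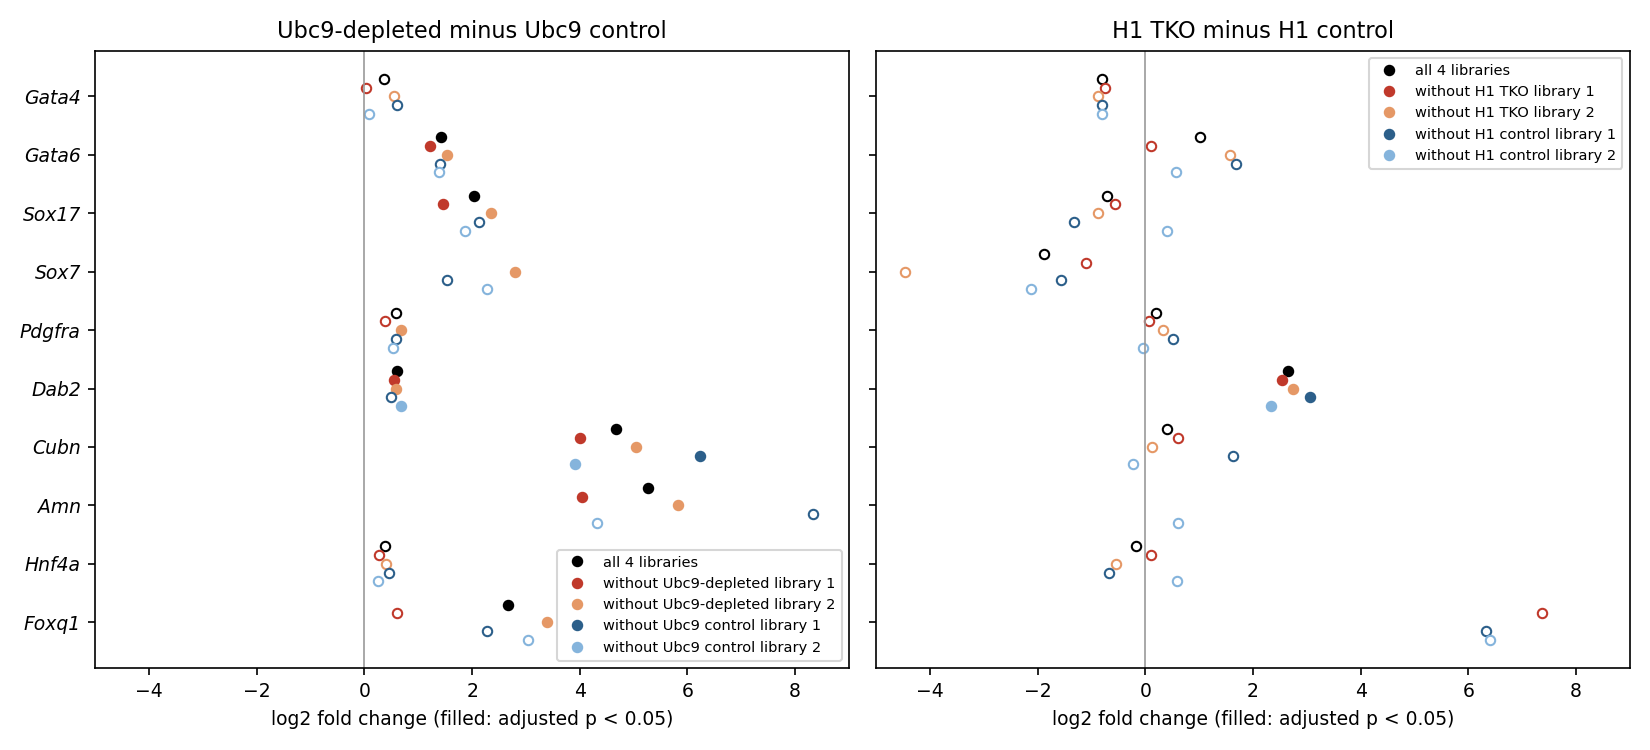
Log2 fold changes of the 10 genes in the fit of all 4 libraries and with each library left out in turn, for Ubc9-depleted minus Ubc9 control cells (left) and H1 TKO minus H1 control cells (right); filled points have an adjusted p under 0.05, and a gene below the count filter in a fit has no point. Cubn after Ubc9 depletion, between 3.92 and 6.24, and Dab2 in H1 TKO cells, between 2.34 and 3.05, are filled in all 5 fits, while the Foxq1 values in H1 TKO cells are fitted against controls at 0 counts.

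The second comparison asks whether loss of 3 linker histones changes the same genes. Dab2 alone was higher in H1 TKO cells and none was lower, with 8 of the 10 genes tested. Over the 14800 genes tested 8.59% were called higher and 8.43% lower, and among those with a control mean under 10 CPM 13.6% and 7.12%. The share of members called, 1 of 8 tested, was near that background. Each fit that left out 1 library also called Dab2 and no other member.

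Dab2 had 11.1 and 9.84 CPM in H1 TKO libraries 1 and 2, against 2.05 and 1.26 CPM in H1 control libraries 1 and 2. The H1 TKO libraries were close to each other and several times higher than either control. The log2 fold change was 2.65 ± 0.33 (edgeR adjusted p = 0.00285), and the ratio of summed counts was 6.12, with a 95% counting interval of 5.24 to 7.17. Without H1 control library 1 it was 3.05 and without H1 control library 2 it was 2.34 on the log2 scale. Since both Dab2 results are rises, the windows before its annotated starts are shown, marked as above.
Dab2, upstream start, chr15:6299539-6299838, plus strand: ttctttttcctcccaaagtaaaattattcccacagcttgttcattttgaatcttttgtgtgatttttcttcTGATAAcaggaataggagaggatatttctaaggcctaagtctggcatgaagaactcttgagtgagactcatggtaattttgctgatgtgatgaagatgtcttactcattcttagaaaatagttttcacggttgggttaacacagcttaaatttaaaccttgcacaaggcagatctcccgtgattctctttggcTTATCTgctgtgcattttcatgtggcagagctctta
Dab2, downstream start, chr15:6386498-6386797, plus strand: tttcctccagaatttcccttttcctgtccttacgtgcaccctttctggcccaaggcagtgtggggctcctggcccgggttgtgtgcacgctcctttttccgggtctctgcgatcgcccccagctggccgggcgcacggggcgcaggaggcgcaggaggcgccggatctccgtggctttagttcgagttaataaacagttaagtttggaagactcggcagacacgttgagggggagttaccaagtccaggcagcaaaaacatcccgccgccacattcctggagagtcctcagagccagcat
The upstream window held 2 GATA matches, 1 before and 1 after the start, and 2 CpG dinucleotides. The downstream window held no GATA match and 19 CpG dinucleotides. Neither held a SOX match. Counts per gene do not tell which start was used.

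Among the transcription factors, Gata4 had 2.08 and 2.32 CPM in H1 TKO libraries 1 and 2, against 3.84 and 3.88 CPM in H1 control libraries 1 and 2. The H1 TKO libraries were both lower, but the log2 fold change of -0.81 ± 0.32 did not pass (edgeR adjusted p = 0.13). Gata6 had 1.85 and 0.671 CPM in H1 TKO libraries, against 0.837 and 0.388 CPM in H1 controls. Its groups overlapped, and the log2 fold change was 1.02 ± 0.71 (edgeR adjusted p = 0.37). Sox17 had 16 and 30 counts in H1 TKO libraries, against 19 and 54 counts in H1 controls. Sox7 had 1 and 17 counts in H1 TKO libraries, against 40 and 23 counts in H1 controls. Sox7 was lower in both H1 TKO libraries, with a log2 fold change of -1.88 ± 1.02 (edgeR adjusted p = 0.254), whereas Sox17 overlapped, at -0.71 ± 0.80 (adjusted p = 0.585). Over all genes tested, both H1 TKO libraries were below both controls in 30.6% and above both in 31.4%.

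Gata4 and Sox7 lie 672 kb apart on chr14, and both were lower in both H1 TKO libraries without passing the test. So were 30.6% of all genes tested below both controls, called or not. Whether the shared position bears on these values was not tested.

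Hnf4a had 37 and 87 counts in H1 TKO libraries 1 and 2, against 44 and 90 counts in H1 control libraries 1 and 2, and overlapped fully (log2 fold change -0.17 ± 0.60, edgeR adjusted p = 0.875). Foxq1 had 0 and 23 counts in H1 TKO libraries, against 0 counts in both H1 controls, and was below the filter. All its reads came from H1 TKO library 2. Pdgfra had 59 and 75 counts in H1 TKO libraries, against 78 and 45 counts in H1 controls, with a log2 fold change of 0.20 ± 0.50 (edgeR adjusted p = 0.817).

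The cubilin receptor genes overlapped in the H1 series. Their large ratios after Ubc9 depletion were taken against control sums of 13 counts for Cubn and 2 for Amn. Both had reached the filter level in fewer than 2 Ubc9 control libraries. Cubn had 13 and 28 counts in H1 TKO libraries 1 and 2, against 26 and 6 counts in H1 control libraries 1 and 2. Amn had 8 and 5 counts in H1 TKO libraries, against 5 and 4 counts in H1 controls, and was below the filter. The log2 fold change of Cubn was 0.41 ± 0.88 (edgeR adjusted p = 0.795), and the counting intervals of the ratio reached 2.16 for Cubn and 3.94 for Amn. A rise of a few-fold in Amn was thus not excluded by its counts.

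The difference between the effects was tested in 1 fit of all 8 libraries, in which 14.5% of 16974 genes differed at an adjusted p under 0.05. Dab2 was the member that passed: its Ubc9 effect minus its H1 effect was -2.05 ± 0.34 on the log2 scale (edgeR adjusted p = 0.003), and it passed with each library left out. For Cubn the difference was 4.25 ± 1.36 and did not pass (adjusted p = 0.062), although it did with no filter on low counts (adjusted p = 0.0224), without H1 control library 2 (adjusted p = 0.000502) and without Ubc9 control library 1 (adjusted p = 0.0336). Sox17 differed by 2.70 ± 1.01 (adjusted p = 0.101), and passed without H1 control library 1 (adjusted p = 0.00587). For Gata6 the difference was 0.41 ± 0.74 (adjusted p = 0.763), so that its effects were not shown to differ between the perturbations. The series used different lines and library kits, and these cannot be told apart from the perturbations in this test.

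Related genes of the lineage moved in both directions, as the plot of related lists shows. Among 10 other endoderm transcription factors 2 rose and 2 fell in Ubc9-depleted cells, with a median log2 fold change of -0.05 against 0.06 over all genes tested. These counts lie near the shares of 21.1% higher and 15.0% lower over all genes. Foxa1 and Foxa2, forkhead factors of endoderm, rose by 1.88 ± 0.51 and 3.02 ± 1.14 on the log2 scale. Foxa2 had 72 and 12 counts in Ubc9-depleted libraries 1 and 2, against 3 and 7 counts in Ubc9 controls. It reached the count filter through the Ubc9-depleted libraries, as neither control was at that level, and was not called without Ubc9-depleted library 1 (edgeR adjusted p = 0.24), whereas Foxa1 was (adjusted p = 0.000891). Tcf7l1, a repressor in the Wnt pathway, and Hhex, a factor of anterior visceral endoderm, fell by 0.45 ± 0.13 and 0.35 ± 0.14 on the log2 scale. None of these 4 was called without Ubc9 control library 2, where their adjusted p ran between 0.245 and 0.829. Of 9 tested in H1 TKO cells 3 rose and none fell, with a median of 0.34. Over all genes tested in the H1 series 8.59% were called higher and 8.43% lower. Among those with a control mean under 10 CPM the shares were 13.6% and 7.12%. Nr2f2, an orphan nuclear receptor, rose by 1.78 ± 0.42 and Tcf7l1 by 1.24 ± 0.32 on the log2 scale. Neither was called without H1 TKO library 1 (edgeR adjusted p of 0.313 and 0.148), nor was Tcf7l1 without H1 TKO library 2 (adjusted p of 0.0843).

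In the list of visceral endoderm uptake and secretion genes 7 of 14 tested rose and 1 fell in Ubc9-depleted cells, with a median of 0.47, against shares of 21.1% and 15.0% over all genes tested. Among tested genes with a control mean under 10 CPM the shares were 34.8% and 2.51%. Of the 7, Apoa1 and Rbp4 reached the filter level in fewer than 2 control libraries, so the count and the median are descriptions of the genes that passed. Apoa1, an apolipoprotein, had 165 and 13 counts in Ubc9-depleted libraries 1 and 2, against 3 and 0 counts in Ubc9 controls, a ratio of 63.6 with a counting interval of 21.4 to 311. Without Ubc9-depleted library 1 the ratio was 10.7, with a counting interval of 2.95 to 58.7, and Apoa1 was still called (edgeR adjusted p = 0.0236). Apoe, another apolipoprotein, rose to 517 ± 11.3 CPM in Ubc9-depleted cells, against 347 ± 13.2 CPM in Ubc9 controls, and the endosomal chloride transporter Clcn5 rose to 12.1 ± 0.563 CPM, against 8.72 ± 0.991 CPM. Lrp2, or megalin, the partner of cubilin in uptake, fell by 0.33 ± 0.11 on the log2 scale (edgeR adjusted p = 0.0203), at 20.4 ± 0.286 CPM in Ubc9-depleted cells and 25.6 ± 2.92 CPM in Ubc9 controls. Apoe and Apoa1 lost their calls when Ubc9 control library 2 was left out (edgeR adjusted p = 0.454 and 0.165). That fit called 1 gene of the list higher and 1 lower, the fit lacking Ubc9 control library 1 called 2 higher and none lower, and the fit lacking Ubc9-depleted library 1 called 7 higher and 2 lower. Of 13 tested in H1 TKO cells 3 rose and 1 fell, with a median of -0.17 against -0.02 over all genes tested. The shares over all genes tested in the H1 series were 8.59% higher and 8.43% lower. Under a control mean of 10 CPM they were 13.6% and 7.12%. Lrpap1, a chaperone of megalin, rose to 259 ± 11.7 CPM in H1 TKO cells, against 119 ± 4.22 CPM in H1 controls, the apolipoprotein gene Apom rose by 2.11 ± 0.37, and Apoe fell by 1.03 ± 0.24 on the log2 scale. Without H1 TKO library 1 or 2 only Apom of these 3 was called (edgeR adjusted p = 0.000119 and 0.00731).

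Of the parietal endoderm and basement membrane genes 6 of 17 tested rose and 3 fell in Ubc9-depleted cells, with a median of 0.31. Over all genes tested 21.1% were called higher and 15.0% lower, and among those with a control mean under 10 CPM 34.8% and 2.51%. The list holds genes on both sides of 10 CPM, so neither pair of shares fits it as a whole, and the counts are descriptions only. The collagen IV genes Col4a1 and Col4a2 rose by 1.10 ± 0.14 and 1.13 ± 0.15 on the log2 scale and passed with each library left out. Col4a1 had 11.2 ± 0.866 CPM in Ubc9-depleted cells and 5.24 ± 0.0767 CPM in Ubc9 controls. Thbd, or thrombomodulin, had 820 and 130 counts in Ubc9-depleted libraries 1 and 2, against 53 and 35 counts in Ubc9 controls, and its log2 fold change of 3.42 ± 0.47 became 1.87 without Ubc9-depleted library 1 (edgeR adjusted p = 4.96e-06). Lama1, a laminin chain, the intermediate filament gene Vim and Nid1, or nidogen, fell by 0.80 ± 0.12, 0.60 ± 0.13 and 0.47 ± 0.13. Lama1 was called in each fit that left out a library, whereas Vim and Nid1 were not called when Ubc9 control library 2 was left out (edgeR adjusted p = 0.072 and 0.583). Among 18 tested in H1 TKO cells 9 rose and 1 fell, with a median of 1.33, against 8.59% higher and 8.43% lower over all genes tested. Of the 18, 3 reached the filter level in fewer than 2 control libraries, among them Plat and Pth1r of the 9. The count and the median are therefore descriptions of the genes that passed. Krt18, a keratin of simple epithelia, rose to 76.4 ± 4.94 CPM in H1 TKO cells, against 6.72 ± 1.66 CPM in H1 controls. Snai1, a factor of epithelial-mesenchymal transition, rose to 37.1 ± 3.70 CPM, against 1.54 ± 1.28 CPM, and Fst, or follistatin, to 37.3 ± 1.49 CPM, against 11.6 ± 1.27 CPM, and these 3 were called with each library left out. Vim fell by 1.03 ± 0.20 on the log2 scale, a call that was lost without H1 TKO library 1 or 2 (edgeR adjusted p = 0.277 and 0.301). The count of higher members was 5 and 6 without H1 TKO library 1 and 2, and 11 and 10 without H1 control library 1 and 2.

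Fgf4, the ligand that favours primitive endoderm in the embryo, fell in both comparisons. It had 147 ± 14.5 CPM in Ubc9-depleted cells and 312 ± 30.6 CPM in Ubc9 controls, a log2 fold change of -1.09 ± 0.13 (edgeR adjusted p = 1.38e-07), and passed with each library left out. In H1 TKO cells it had 148 ± 4.53 CPM, against 295 ± 27.4 CPM in H1 controls, so that it fell by 1.00 ± 0.18 on the log2 scale (edgeR adjusted p = 0.0122), and was not called without H1 TKO library 1 or 2 (adjusted p = 0.232 and 0.319). Of the 16 FGF-ERK genes 4 rose and 3 fell in Ubc9-depleted cells, with a median of -0.11 and near the shares of 21.1% and 15.0% over all genes. In H1 TKO cells none rose and Fgf4 alone fell, with a median of -0.21. The shares over all genes tested in the H1 series were 8.59% higher and 8.43% lower. Spry4 and Spry2, feedback inhibitors that ERK signalling induces, rose by 2.08 ± 0.39 and 0.48 ± 0.12 after Ubc9 depletion, Spry4 with each library left out. The receptor gene Fgfr2 had 443 and 129 counts in Ubc9-depleted libraries 1 and 2, against 112 and 109 counts in Ubc9 controls, and was not called without Ubc9-depleted library 1 (adjusted p = 0.177). Etv4, an ERK-dependent factor, and Sos1, an activator of Ras, fell by 0.59 ± 0.12 and 0.35 ± 0.12 on the log2 scale. Etv4 was called in each fit that left out a library, and Spry2 and Sos1 were not when Ubc9 control library 2 was left out (adjusted p = 0.253 and 0.563), nor was Fgfr2 (adjusted p = 0.21). Several of the related genes named in this report lost their calls when Ubc9 control library 1 was left out. They were Foxa1, Foxa2, Tcf7l1, Apoe, Clcn5, Lrp2, Rbp4, Plat, Nid1, Fgfr2, Spry2 and Sos1. Leaving out Ubc9-depleted library 1 also ended the calls of Hhex, Lrp2 and Sos1.

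**Figure D4:**
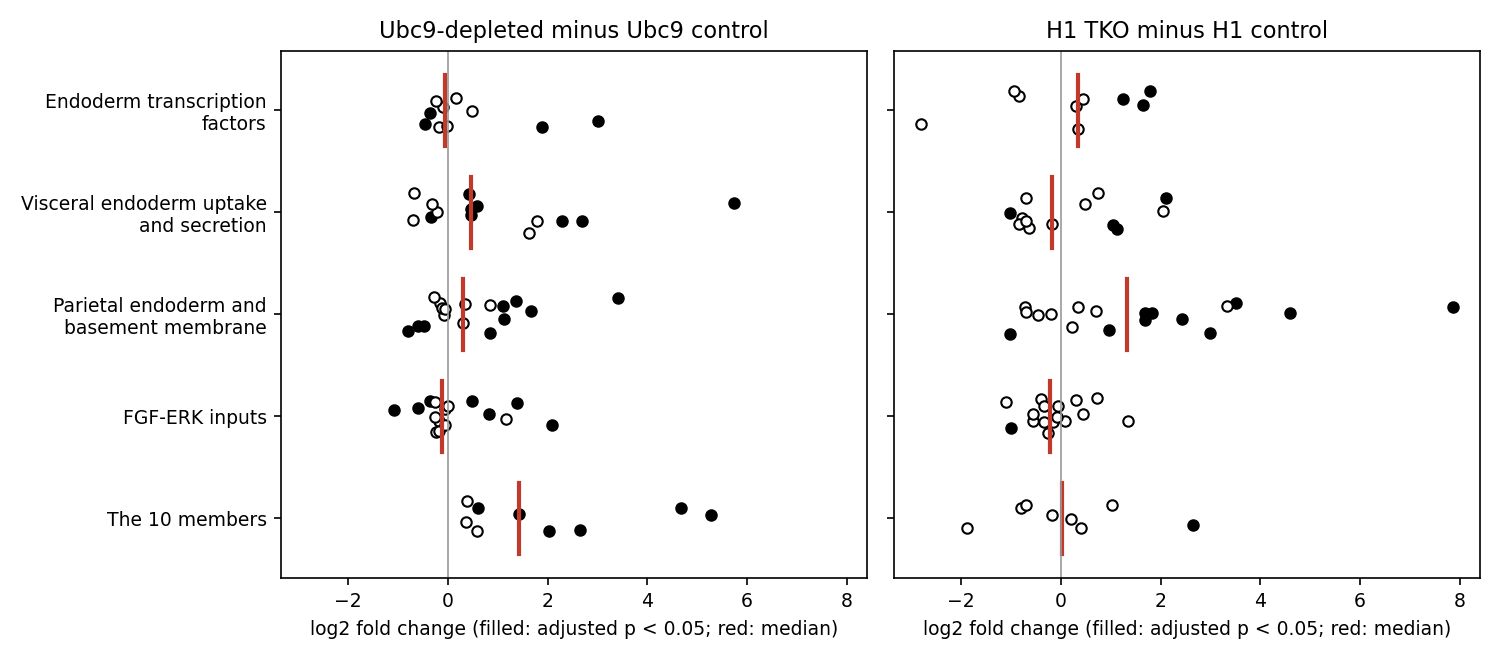
Log2 fold changes of tested genes in 4 related lists and of the 10 primitive endoderm genes, for Ubc9-depleted minus Ubc9 control cells (left) and H1 TKO minus H1 control cells (right); filled points have an adjusted p under 0.05 and red bars are medians. The other endoderm factors are spread around 0 after Ubc9 depletion, with a median of -0.05. The tested parietal endoderm genes have a median of 1.33 in H1 TKO cells, 3 of them having passed the filter through the H1 TKO libraries.

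Markers of other cell types were read in the same libraries. Summed over 10 genes, epiblast markers had 5220 to 5250 CPM in Ubc9-depleted libraries, against 5460 to 5730 CPM in Ubc9 controls, and the 10 primitive endoderm genes summed to 25.6 to 34.5 CPM, against 16.4 to 16.7 CPM. In the H1 series the epiblast sum was 10900 to 11000 CPM in H1 TKO libraries, against 5780 to 6200 CPM in H1 controls. Tfcp2l1, at 5160 ± 355 CPM against 1690 ± 118 CPM, was the only 1 of these 10 genes called. Nanog, Sox2, Pou5f1, Esrrb and Klf2 were higher in both H1 TKO libraries without passing the test. Klf4, Prdm14 and Zfp42 were lower in both without passing, and Tdgf1 overlapped. The primitive endoderm sum was 16.9 to 18.1 CPM in H1 TKO libraries, against 9.83 to 10.2 CPM in H1 controls, and Dab2 made up most of it in H1 TKO cells. Markers of the 2-cell-like state, like Dab2, summed higher with both perturbations: 450 to 490 CPM in Ubc9-depleted libraries, against 22.6 to 25.9 CPM in Ubc9 controls, and 93.6 to 97.5 CPM in H1 TKO libraries, against 4.13 to 6.83 CPM in H1 controls. Zscan4d, a defining marker of that state, had 127 ± 4.62 CPM in Ubc9-depleted cells and 3.66 ± 0.563 CPM in Ubc9 controls. Of the 11 listed markers found in the tables Gm6763 was at 0 in all libraries, and Dux also in H1 control library 2. Their part in the primitive endoderm values was not tested. Definitive endoderm and streak markers summed to 11.8 to 15.5 CPM in Ubc9-depleted libraries, against 18.7 to 19.5 CPM in Ubc9 controls, and trophectoderm markers to 107 to 120 CPM, against 134 to 140 CPM. Genes within these lists went both ways after Ubc9 depletion. Of 6 definitive endoderm and streak markers tested 1 rose and 3 fell, and of 8 trophectoderm markers 1 rose and 4 fell. Over all genes tested in the Ubc9 series 21.1% were called higher and 15.0% lower. Among those with a control mean under 10 CPM the shares were 34.8% and 2.51%. In H1 TKO libraries definitive endoderm markers summed to 43.0 to 44.2 CPM, against 31.4 to 32.7 CPM in H1 controls. Trophectoderm markers summed to 173 to 175 CPM, against 160 to 193 CPM, a sum that hides opposite changes. Of 8 tested in H1 TKO cells 2 rose (Krt7 and Eomes) and 1 fell (Tfap2c). Krt7 had 13.4 ± 1.24 CPM in H1 TKO cells, against 0.943 ± 0.0104 CPM in H1 controls. Tfap2c had 37.0 ± 0.129 CPM, against 77.7 ± 9.82 CPM. Over all genes tested in the H1 series 8.59% were called higher and 8.43% lower. Of these definitive endoderm and streak markers only Eomes was called higher, at 38.7 ± 0.633 CPM in H1 TKO cells, against 17.4 ± 1.75 CPM in H1 controls. T and Cxcr4 were called lower, and Gsc and Mixl1 were lower in both H1 TKO libraries without passing the test. Parietal endoderm markers summed to 538 to 632 CPM in Ubc9-depleted libraries, against 630 to 676 CPM in Ubc9 controls, and to 1620 to 1770 CPM in H1 TKO libraries, against 939 to 1190 CPM in H1 controls. In both series that sum was mostly Sparc, which was called in neither. Sparc had 1640 ± 113 CPM in H1 TKO cells and 1010 ± 180 CPM in H1 controls. In the Ubc9 series, of 7 parietal endoderm markers tested 4 rose (Thbd, Plat, Col4a1 and Col4a2) and 1 fell (Lama1). The shares were 21.1% and 15.0% over all genes tested, and 34.8% and 2.51% under a control mean of 10 CPM. Of 8 parietal endoderm markers tested in H1 TKO cells, those called higher were Plat, Pth1r and Col4a2, and none was called lower. The shares over all genes tested in the H1 series were 8.59% higher and 8.43% lower. Fibroblast markers summed to 17.8 to 19.2 CPM in H1 TKO libraries, against 17.6 to 25.1 CPM in H1 controls, with between 2 and 6 of the 12 at 0.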

How the data were processed

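Deposited counts per gene symbol, made by the authors, were used for 8 libraries in 2 tables. Per the submitters' processing notes the tools named, without order, are HTSeq, STAR, DESeq2 and cutadapt, with mm10 as the build; the sources used here give no roles, versions, annotation or strand setting. Libraries were made with ScriptSeq v2 (Ubc9) and Lexogen SENSE V2 (H1), per the labels' protocols, so each series was fitted alone. The fit used edgeR 4.0.16 in R 4.3.3 (filterByExpr with minimum count 10 and total 15, TMM, quasi-likelihood F test, Benjamini-Hochberg over all genes tested, threshold 0.05), checked on simulated data. An SE is the fold change divided by the root of F. The count of 3 corresponds to 0.03 to 0.0685 CPM per library. Counting intervals are exact binomial at 95% and cover counting error only. Exon lengths and loci come from GENCODE M21 (GRCm38). The members, the related lists and the rule for naming genes (all 10 members, per related list and direction up to 3 genes with the smallest adjusted p, and marker genes of highest CPM) were chosen with earlier results of these data known. Alternatives were DESeq2 1.42.0, RLE factors, library totals, no filter, all 8 libraries in 1 fit, a replicate block and leaving out each library. Results for some genes are not reported here. For a library left alone in a group, its spread was assumed to be that of the other group.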

Additional observations from a re-analysis of the deposited data

Results flagged for a closer look

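The effect on Dab2 differed between the perturbations by a test of the difference itself. The Ubc9 effect minus the H1 effect was -2.05 ± 0.34 on the log2 scale (edgeR interaction test, adjusted p = 0.003), with rises of 0.61 in Ubc9-depleted cells and 2.65 in H1 TKO cells, each in 2 of 2 libraries. In H1 TKO cells Dab2 averaged 10.5 CPM, against 1.66 CPM in H1 controls, and in Ubc9-depleted cells 10.1 CPM, against 6.60 CPM in Ubc9 controls. Kits and lines differ between the series, so these levels are not comparable across them.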

How the results depend on the processing

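The 10 genes had few counts, which limits what could be called: with the filter, a member was tested when 2 libraries reached 0.107 CPM in the Ubc9 series or 0.183 CPM in the H1 series. With all 8 libraries in 1 fit the Ubc9 comparison had 1 member higher (Cubn), 1100 genes higher and 483 lower, and 6 higher and 2 lower related genes, and the H1 comparison had 2205 genes higher, 2158 lower and 11 related genes lower. DESeq2 called 12 related genes higher in the Ubc9 comparison and 8 lower in the H1 comparison. Scaling by library totals gave 1084 genes and 5 related genes lower in the Ubc9 comparison and 7 related genes lower in the H1 comparison, and moved the median of all genes to 0.25, against 0.06 with TMM, in the Ubc9 comparison. With no filter 1895 genes and 9 related genes were lower in the H1 comparison, and 2 members differed between the effects. The replicate numbers did not pair libraries across groups (correlations of deviations 0.02 and 0.06). With a replicate block 5 members were higher after Ubc9 depletion, Foxq1 being lost (edgeR adjusted p = 0.133), 7 related genes were lower in the H1 comparison, and 2 members differed between the effects, Cubn being added (adjusted p = 0.0334). Leaving out each library in turn gave 1 to 8 members, 1230 to 8428 genes and 6 to 27 related genes higher in the Ubc9 comparison, with 795 to 4610 genes and 4 to 19 related genes lower. In the H1 comparison it gave 617 to 3994 genes and 6 to 24 related genes higher and 488 to 4038 genes and 0 to 16 related genes lower, and 1 to 2 members differed between the effects. The spread then comes from 1 group, and the SD of the log2 ratio was 0.83 in the Ubc9-depleted pair and 0.40 in the Ubc9 control pair. Over the same fits some uncalled log2 fold changes changed sign, and the cause was not tested. In the H1 comparison Sox17 ran between -1.33 and 0.40, Pdgfra between -0.05 and 0.51, Cubn between -0.23 and 1.63 and Hnf4a between -0.67 and 0.59, with the other sign without H1 control library 2 for all 4 and without H1 TKO library 1 for Hnf4a (0.10). In the difference between effects Gata6 ran between -0.32 and 1.25, Sox7 between -0.36 and 6.35, Pdgfra between 0.00 and 0.61, Hnf4a between -0.24 and 0.97 and Foxq1 between -6.15 and 2.58. The Foxq1 value of 2.58 came without H1 TKO library 2, the only H1 library with Foxq1 reads. Its SE there was 4874.15, so it is not an estimate of a change of sign. Dab2 was called in the H1 comparison and in the difference between effects under every alternative run.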
